A study of Mus musculus with 144 samples.

Results

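The liver makes most of the clotting and complement proteins of plasma, and the 38 genes described here encode 14 clotting and contact factors, 9 inhibitors of clotting or proteins of fibrinolysis, and 15 complement proteins. They were chosen by name, with earlier results of these data known, out of 51912 genes in the count table. All 38 were measured. In the clotting cascade, serine proteases activate each other in turn until thrombin cuts fibrinogen into fibrin. Antithrombin and the protein C system hold the cascade back, and plasmin dissolves the clot. Complement is a parallel cascade in which mannose-binding lectins, C2, C4 and factor B lead to the cleavage of C3 and then to the membrane attack complex of C5 to C9.

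The RNA came from livers of male C57BL/6J mice housed on a 12 h light, 12 h dark cycle with free access to food, and was taken at zeitgeber times (ZT, hours after lights on) 2, 6, 10, 14, 18 and 22. Wild-type mice gave total RNA, nuclear RNA from nuclei spun through a sucrose cushion, and polysomal RNA from sucrose gradients run with cycloheximide; mice labelled Bmal1-/-, which lack the clock activator BMAL1, gave total RNA only. Each of the 4 series held 6 libraries at each of 6 times, and each library counted the 3′ ends of polyadenylated transcripts. The labels do not say whether libraries of a group came from separate animals, nor what part of the gene was deleted or whether the deletion was confined to liver. The p-values therefore measure the spread between libraries, which may be technical.

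Library totals ran from 1662449 counts (a nuclear library) to 14281894 (a Bmal1-/- library). Arntl, the gene for BMAL1, was still counted in Bmal1-/- libraries at a median of 10.9 CPM (counts divided by library size and put on a common scale), against 6.46 CPM in wild type; since the counts come from transcript ends and the labels do not place the deletion, they do not check the genotype. The 10 hepatocyte markers, albumin among them, summed to medians of 88520 CPM in wild-type total, 77060 CPM in nuclear, 57660 CPM in polysomal and 72080 CPM in Bmal1-/- libraries, with none of the markers at 0. In 4 libraries, 1 in each series and all at ZT22, Xist exceeded 100 CPM although all mice were labelled male, and 5 libraries correlated least with the rest of their series. Without the Xist libraries 22 of the 38 genes were called higher and 3 lower in Bmal1-/- liver, and without those that correlated least 23 higher and 3 lower, against 21 and 4 with all libraries.

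The genes of the fibrinogen chains, Fga, Fgb and Fgg, lie next to each other on chromosome 3 (GRCm38.p6): Fgg at positions 83007724 to 83015056, Fga at 83026153 to 83033627 and Fgb at 83042246 to 83049863. Their promoters are shown because the 3 transcripts moved together by time of day and in Bmal1-/- liver. The 200 bases before each RefSeq start site are given 5′ to 3′ on the gene's own strand, from chr3:83025953-83026152 (plus strand) for Fga, chr3:83049864-83050063 (minus) for Fgb and chr3:83007524-83007723 (plus) for Fgg. Capitals mark matches, on either strand, to CTGGGAA (the core of the interleukin-6 response element) or GTTAAT (the half-site of the hepatocyte factor HNF1).
Fga: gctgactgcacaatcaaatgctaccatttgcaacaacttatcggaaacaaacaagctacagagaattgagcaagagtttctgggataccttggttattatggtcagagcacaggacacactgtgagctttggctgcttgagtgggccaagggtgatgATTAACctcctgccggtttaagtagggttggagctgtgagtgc
Fgb: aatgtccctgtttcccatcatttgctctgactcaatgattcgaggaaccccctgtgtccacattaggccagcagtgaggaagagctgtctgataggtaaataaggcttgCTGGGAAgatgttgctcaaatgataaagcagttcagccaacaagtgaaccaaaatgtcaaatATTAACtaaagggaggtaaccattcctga
Fgg: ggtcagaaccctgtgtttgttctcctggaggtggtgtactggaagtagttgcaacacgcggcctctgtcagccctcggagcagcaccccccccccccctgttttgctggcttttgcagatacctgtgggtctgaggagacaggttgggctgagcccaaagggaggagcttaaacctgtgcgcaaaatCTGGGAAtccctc

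The GTTAAT match began 43 bases before the start in Fga and 29 bases before it in Fgb. The CTGGGAA match began 91 bases before the start in Fgb and 13 bases before it in Fgg. Promoters of 30 of the 38 genes were in the RefSeq table, with 31 start sites among them, and the 250 bases before each start were searched on both strands. GTTAAT was found for 8 of the 30 genes (Fga, Fgb, F13b, Proz, Vtn, C4bp, C8a and C8b) and in 6.43% of all 32851 promoters. CTGGGAA was found for 4 genes (F9, Fgb, Fgg and Masp2) and in 9.10% of all promoters, and AGGTCA, the half-site of many nuclear receptors, for 11 genes and in 14% of all promoters. Neither the circadian E-box CACGTG (6.02% of all promoters) nor the D-box TTATGTAA (0.819%) was found in these windows of the 30 genes. The matches printed do not overlap each other, and a match is a match of letters only.

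In Bmal1-/- liver the clotting and complement genes were mostly higher than in wild type. Of the 38, 21 rose and 4 fell (edgeR quasi-likelihood test, Benjamini-Hochberg adjusted p under 0.05 over all genes), and 13 did not pass. Over all 12082 genes tested, 44.2% passed, 21.7% higher and 22.4% lower. A change of at least 0.5 on the log2 scale was called for 5 of the 38 genes (C9, C3, Plg, Fgb and C2), beside 14.6% of all genes. The median log2 change of the 38 genes was 0.19, beside -0.00 for all genes. Among the clotting and contact factors 10 rose and 1 fell, among the inhibitors and fibrinolysis proteins 4 rose and none fell with 5 not called, and among the complement genes 7 rose and 3 fell. Scaled by total counts alone, without the trimmed-mean (TMM) factors, the median of all genes moved by 0.10 on the log2 scale and 26 of the 38 genes were called higher and 1 lower. All genes shifted with this scaling, to 4290 called higher and 1695 lower, against 2627 and 2708 with the TMM factors.

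**Figure D1:**
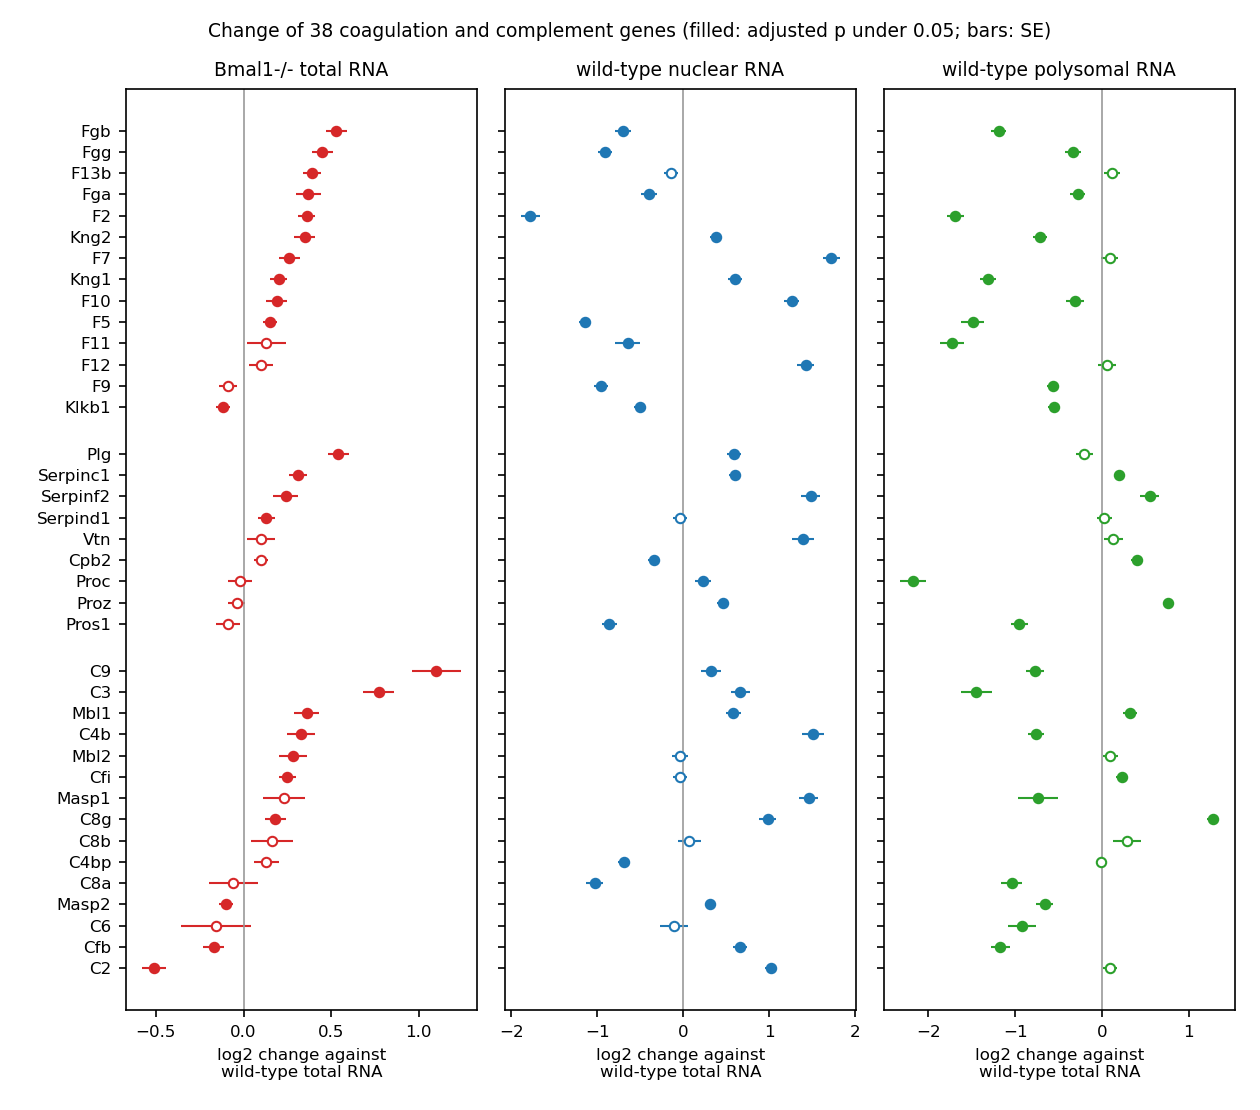
Log2 change of each of the 38 genes against wild-type total RNA in Bmal1-/- total, nuclear and polysomal RNA, by role from top to bottom (clotting and contact factors, inhibitors and fibrinolysis, complement), with bars for 1 SE and filled points for adjusted p under 0.05. Most points in the Bmal1-/- panel lie to the right of 0, from C2 at -0.51 to C9 at 1.10, while the polysomal panel reaches from Proc at -2.18 to C8g at 1.28.

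C9 encodes the last subunit of the membrane attack complex. Its level ran from 254 to 1199 CPM (median 548, 36 libraries) in wild-type and from 191 to 2028 CPM (median 1325) in Bmal1-/- total RNA. The log2 change was 1.10 ± 0.14 (SE), adjusted p = 4.94e-10, with Bmal1-/- higher at 6 of 6 times. The Bmal1-/- libraries had both the highest and the lowest values, so that the ranges overlapped: 5 libraries, all among replicates 4 to 6 of ZT2, ZT10 and ZT18, lay between 191 and 567 CPM. With replicates 1 to 3 alone the log2 change was 1.52 ± 0.11, and with replicates 4 to 6 alone it was 0.59 with adjusted p = 0.0297. C3, on which all complement pathways converge, ran from 930 to 5349 CPM (median 2128) in wild type and from 2729 to 6510 CPM (median 4395) in Bmal1-/- liver. Its log2 change was 0.77 ± 0.09, adjusted p = 1.01e-10, and the highest wild-type value came from the ZT22 replicate with Xist at 408 CPM.

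Transcripts of plasminogen and fibrinogen changed by similar amounts. Plg, the precursor of plasmin, ran from 1074 to 2171 CPM (median 1338) in wild type and from 1647 to 3044 CPM (median 2214) in Bmal1-/- liver, a log2 change of 0.54 ± 0.06 with adjusted p = 1.53e-12. The ranges overlapped: 3 wild-type libraries lay at 1762 to 2171 CPM, and the 2 lowest Bmal1-/- libraries at 1647 and 1755 CPM. Fgb, the fibrinogen beta chain, ran from 4766 to 10054 CPM (median 6768) in wild type and from 7622 to 20345 CPM (median 10323) in Bmal1-/- liver, a log2 change of 0.53 ± 0.06 with adjusted p = 2.28e-10. The ranges overlapped here too, and the value of 20345 CPM was a single library at ZT2, the next highest being 14431 CPM. The other chains moved the same way, Fgg by 0.45 ± 0.06 and Fga by 0.37 ± 0.07. Fga was at 0.62 with replicates 1 to 3 alone and at 0.16 with replicates 4 to 6 alone, where it was not called (adjusted p = 0.204). Its means in these sets were 1095 and 1469 CPM in wild type, and 1743 and 1781 CPM in Bmal1-/- liver. Transcripts of both fibrinogen, the substrate of the clot, and plasminogen, whose product dissolves it, were higher in Bmal1-/- liver. Protein was not measured.

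C2, the protease of the classical and lectin convertases, was the only gene that fell by more than 0.5 on the log2 scale. It ran from 33.8 to 70.7 CPM (median 52.6) in wild type and from 21.6 to 54.7 CPM (median 40.5) in Bmal1-/- liver, a log2 change of -0.51 ± 0.07 with adjusted p = 1.21e-09, and Bmal1-/- was higher at 0 of 6 times. The ranges overlapped, and the 4 lowest Bmal1-/- libraries, at 21.6 to 28.1 CPM, were 4 of the 5 libraries low in C9. The log2 change was -0.25 with replicates 1 to 3 alone and -0.76 with replicates 4 to 6 alone. The next gene on chromosome 17, Cfb, which encodes the matching protease of the alternative pathway and lies 87 bases away, fell by 0.17 on the log2 scale (adjusted p = 0.0127). Klkb1, plasma prekallikrein, fell by 0.12 and Masp2, a protease of the lectin pathway, by 0.10 (adjusted p = 0.049). Scaled by total counts, Cfb, Klkb1 and Masp2 were no longer called, and Masp2 had a log2 change of 0.00. The call of Masp2 held in 1 of 10 alternative fits and was lost both without the Xist libraries and without those that correlated least.

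**Figure D2:**
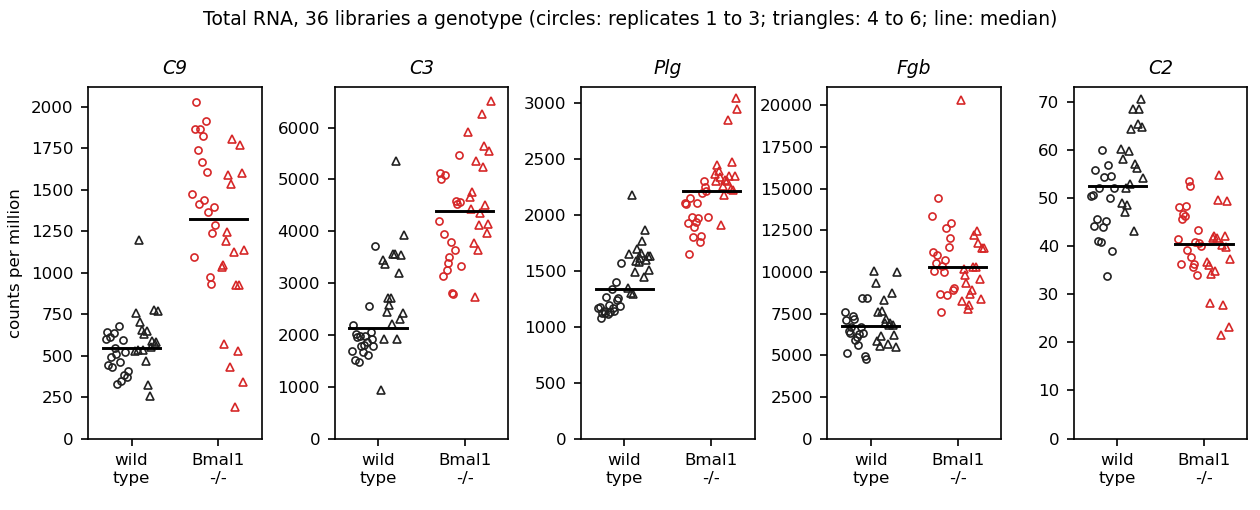
Level in CPM of C9, C3, Plg, Fgb and C2 in the 36 wild-type and 36 Bmal1-/- total RNA libraries, with circles for replicates 1 to 3, triangles for replicates 4 to 6 and a line at the median. The medians of C9 are 548 and 1325, and the lowest Bmal1-/- points of C9 and C2 are triangles.

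Smaller rises were called in each role. Among the clotting factors, F13b (the carrier subunit of the fibrin-crosslinking factor XIII) rose by 0.39 ± 0.05, F2 (prothrombin) by 0.36 ± 0.05, Kng2 and Kng1 (kininogens) by 0.35 and 0.20, F7 (the factor that starts clotting with tissue factor) by 0.26, F10 by 0.19 and F5 by 0.15. F9, F11 and F12, factors of the intrinsic pathway, were not called (-0.09, 0.13 and 0.10). Among the inhibitors, Serpinc1 (antithrombin) rose by 0.31 ± 0.05, Serpinf2 (the plasmin inhibitor) by 0.24 and Serpind1 (heparin cofactor II) by 0.13. Among the complement genes, the lectins Mbl1 and Mbl2 rose by 0.36 and 0.28, C4b by 0.33, Cfi (the protease that inactivates C3b) by 0.25 and C8g by 0.18, while C6, C8a, C8b, C4bp and Masp1 were not called. Proc (protein C), Pros1 (its cofactor protein S) and Proz (protein Z, a cofactor of an inhibitor of factor X) were not called, with log2 changes of -0.02, -0.09 and -0.04. Kng1 and Kng2, and likewise C4b and the neighbouring copy C4a, are near-identical genes whose reads may have been split between them, so their single values are uncertain.

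Of the 25 genes called, 11 were called in all 10 alternative fits: F2, F7, F13b, Fgb, Fgg, Kng1, Kng2, Plg, C2, C3 and C9. Of the 13 genes not called, 2 were called in opposite directions when the replicates were split. C8b, a subunit of the membrane attack complex, was called higher in replicates 1 to 3 (log2 change 0.74 ± 0.14) and lower in replicates 4 to 6 (-0.41 ± 0.16). F11, which amplifies thrombin formation, was called higher in replicates 1 to 3 (0.63 ± 0.11) and lower in replicates 4 to 6 (-0.34 ± 0.13). Both genotypes differed between these sets. Mean C8b was 294 and 438 CPM in wild type, and 513 and 368 CPM in Bmal1-/- liver. Mean F11 was 16.5 and 25.7 CPM in wild type, and 26.9 and 22.5 CPM in Bmal1-/- liver. The difference between these sets of replicates was not tested, and the labels name no batch. How many of all genes were called in all 10 alternative fits, or in opposite directions, was not counted.

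Other genes of these pathways, in lists of 28 clotting and 31 complement genes, were less uniform. Of the 18 clotting-related genes with enough counts, 4 rose and 4 fell, with a median log2 change of -0.06. Ggcx, the carboxylase that activates vitamin K-dependent factors, rose by 0.32, Hrg by 0.27 and Pzp by 0.15. Serpine2 fell by 1.77 ± 0.26, Gas6 by 1.24 ± 0.12 and Adamts13, which cuts von Willebrand factor, by 0.45. Of the 25 complement-related genes, 4 rose and 12 fell, with a median of -0.21. Colec10 rose by 0.52, C4a by 0.39 and Hc, which encodes C5, by 0.37.

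The complement genes that fell included ones made mainly by cells other than hepatocytes, and in bulk tissue fewer cells of a type and less RNA per cell cannot be told apart. Cfd, complement factor D, a product of fat cells, had the largest fall: its median was 1.06 CPM in wild type (0 to 114, at 0 in 11 of 36 libraries) and 0 in Bmal1-/- liver (0 to 2.07, at 0 in 21 of 36). The other 4 adipocyte markers summed to 0.118 to 13.9 CPM (median 0.94) in wild type and to 0 to 2.55 CPM (median 0.195) in Bmal1-/- liver, with 1 marker at 0 in all wild-type libraries. Cfp (properdin) fell by 0.72, and the 3 chains of C1q, made by macrophages, fell by 0.59 (C1qa), 0.61 (C1qb) and 0.47 (C1qc). The 10 Kupffer cell markers summed to medians of 342 CPM in wild type (180 to 1161) and 280 CPM in Bmal1-/- liver (126 to 589), and 8 of the 10 were called lower and none higher, with a median log2 change of -0.67. The part of either cell type in these results was not tested.

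Acute-phase genes also went both ways. Of 21, 8 rose and 7 fell in Bmal1-/- liver, with a median of 0.08. Apcs, serum amyloid P, rose by 1.86 ± 0.20 (from a median of 68.1 to 256 CPM), Itih3 by 1.42 ± 0.13 and Mt1 by 1.23 ± 0.38. Serum amyloid A genes fell, Saa1 by 2.69 ± 0.36, Saa2 by 2.60 ± 0.39 and Saa3 by 1.83 ± 0.20. Of 7 markers of bile duct cells, 2 had enough counts to test and both were higher in Bmal1-/- liver, Sox9 by 1.44 ± 0.10 and Spp1 by 1.2 ± 0.15. Krt19 had medians of 0.415 CPM in wild type and 0.408 CPM in Bmal1-/- liver, and Epcam of 0.598 and 0.732 CPM. The 7 genes summed to a median of 73.6 CPM (45.8 to 136) against 25.7 CPM (16.3 to 66.6) in wild type, and their part in the changes above was not tested.

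By time of day, 5 of the 38 genes were rhythmic in wild-type total RNA by a 24 h cosine fit, all of them clotting or contact genes, beside 18.9% of all 11964 genes tested. Fga, Fgb and Fgg peaked together early in the light phase, Klkb1 in mid-light and F5 near lights off. The median fitted peak-to-trough ratio was 1.1 for the 38 genes and 1.25 for all genes. No inhibitor or complement gene was called.

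The fibrinogen genes had their highest means at ZT6 and their lowest at ZT18. Fga was at 1072 to 2038 CPM (median 1542) at ZT6 and at 774 to 1143 CPM (median 985) at ZT18, with overlap. Fgb was at 7136 to 9367 CPM (median 8399) at ZT6 and at 4766 to 6313 CPM (median 5589) at ZT18, with no overlap between the 6 libraries of each time. Fgg was at 1663 to 2516 CPM (median 2065) at ZT6 and at 1208 to 1479 CPM (median 1364) at ZT18, again without overlap. The fitted peak-to-trough ratio was 1.56 for Fga (peak ZT2.26, adjusted p = 0.0117), 1.4 for Fgb (ZT2.72, adjusted p = 0.00583) and 1.47 for Fgg (ZT2.78, adjusted p = 0.0081). The means at ZT22 and ZT2 were also above those from ZT10 to ZT18 for each of the 3 genes.

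Klkb1 and F5 had narrower rhythms. Klkb1 was at 340 to 398 CPM (median 362) at ZT10 and at 225 to 290 CPM (median 279) at ZT18, without overlap, a fitted ratio of 1.3 with its peak at ZT7.45 (adjusted p = 0.00113). F5, the cofactor of factor Xa, was at 976 to 1191 CPM (median 1087) at ZT10 and at 754 to 920 CPM (median 817) at ZT2, also without overlap, a fitted ratio of 1.23 with its peak at ZT11.1 (adjusted p = 0.0175). F10, the protease that F5 assists, was not called, nor was F11, which lies 4632 bases from Klkb1 on chromosome 8. With replicates 1 to 3 alone 3 genes were called (Fga, Fgb and Fgg), and with replicates 4 to 6 alone 1 (Klkb1). The shares of all genes in these smaller fits are not given here.

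**Figure D3:**
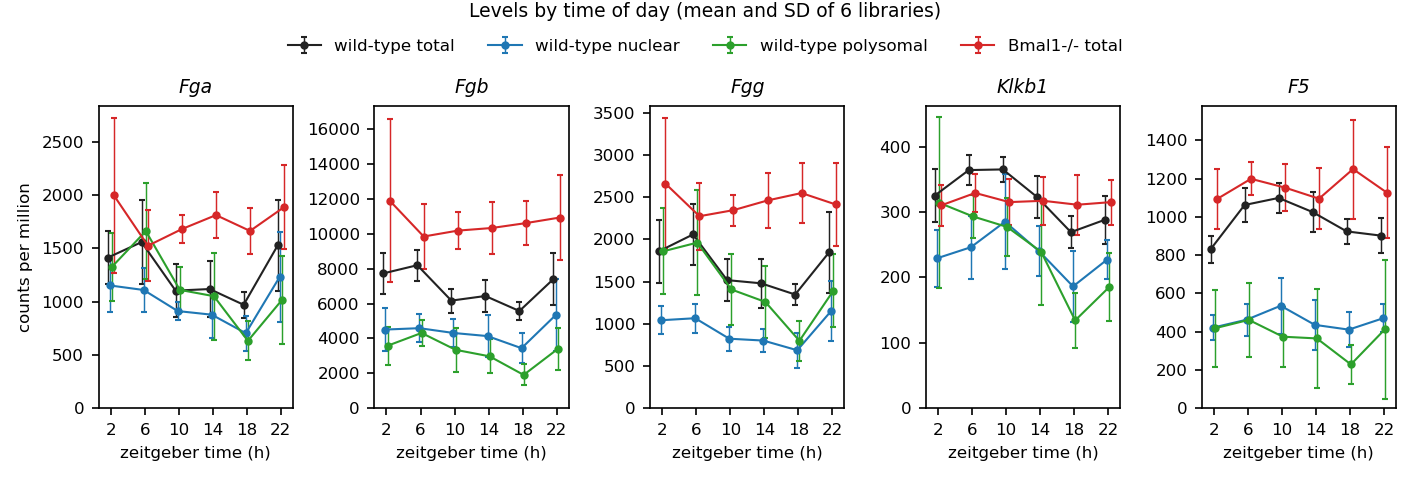
Mean and SD over 6 libraries of Fga, Fgb, Fgg, Klkb1 and F5 at each zeitgeber time in the 4 series, in CPM. In wild-type total RNA the fibrinogen genes are lowest at ZT18, and in Bmal1-/- total RNA the means of Fgb stay between 9846 and 11909.

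In Bmal1-/- total RNA none of the 38 genes was rhythmic (0 at adjusted p under 0.05, by edgeR and by DESeq2, and 0 at an unadjusted p under 0.05), beside 0.00825% of all 12126 genes tested, a single gene. The fitted ratios were 1.15 for Fga and Fgb, 1.09 for Fgg, 1.07 for Klkb1 and 1.01 for F5. The test of the difference in rhythm between genotypes called none of the 38 genes, beside 5.11% of all 12082 genes, and 2 had an unadjusted p under 0.05: Fgg (adjusted p = 0.166) and Klkb1 (adjusted p = 0.178). The rhythms of these genes were thus called in wild type and not in Bmal1-/- liver, while their difference did not pass. Without the libraries of these series that correlated least, Klkb1 alone passed the test of the difference (adjusted p = 0.0417). Those left out were wild-type ZT2 replicate 4 and Bmal1-/- ZT18 replicate 5.

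In polysomal RNA 3 of the 38 genes were rhythmic, Klkb1, Fga and Fgg, beside 7.90% of all 10691 genes tested. Klkb1, whose highest mean was at ZT2 (314 CPM), was at 264 to 345 CPM (median 281) at ZT6 and at 99.7 to 211 CPM (median 118) at ZT18, a fitted ratio of 1.86 with its peak at ZT6.76 (adjusted p = 0.00377). Fga was at 1287 to 2466 CPM (median 1434) at ZT6 and at 390 to 899 CPM (median 663) at ZT18, a ratio of 1.82 with its peak at ZT5.67 (adjusted p = 0.0155). Fgg had a ratio of 1.81 with its peak at ZT4.86 (adjusted p = 0.0188), and Fgb one of 1.56 that was not called (adjusted p = 0.156). For all 4 genes the libraries at ZT18 lay below those at ZT6 without overlap.

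In nuclear RNA none of the 38 genes was called (0 by edgeR and 1 by DESeq2, with 3 at an unadjusted p under 0.05), beside 5.99% of all 11172 genes. Fga and Fgg nevertheless had fitted ratios of 1.62 each and peaks at ZT2.31 and ZT2.19, with adjusted p of 0.114 and 0.0624. The rhythm differed from that of total RNA for none of the 38 genes in either fraction, and for 0% of all genes. At an unadjusted p under 0.05 this test gave 0 of the 38 genes for nuclear and 1, Klkb1, for polysomal RNA. In polysomal RNA the calls depended on the libraries and the fit. They were 0 with replicates 1 to 3 alone, 8 with replicates 4 to 6 alone, 5 without replicate 1 and 5 without the libraries that correlated least. Counts for a replicate block and for time as a factor are given below. The shares of all genes in these fits are not given here.

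Nuclear RNA differed from total RNA for 32 of the 38 genes, 20 higher and 12 lower, beside 83.8% of all 11864 genes (41.6% higher, 42.1% lower). A difference of at least 0.5 on the log2 scale was called for 25 of them, beside 64.6% of all genes. By role, 5 clotting and contact factors were higher and 8 lower, 6 inhibitors and fibrinolysis genes higher and 2 lower, and 9 complement genes higher and 2 lower. Same-numbered nuclear and total libraries deviated together in 35 of 36 pairs, so they may come from the same livers, which the labels do not settle. The fit treated all 72 libraries as independent. With a replicate block 20 genes were higher and 13 lower. The nuclear, polysomal and Bmal1-/- comparisons share the same wild-type total libraries, so their values are given side by side without a test of their likeness. Since each library is scaled to its own total, these are changes relative to other transcripts of the fraction.

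F7 had the largest nuclear excess. It ran from 22.8 to 90.1 CPM (median 68.8) in total RNA and from 134 to 319 CPM (median 228) in nuclear RNA, without overlap, a log2 difference of 1.72 ± 0.10 (adjusted p = 3.33e-27). C4b, the C4 component of the classical and lectin pathways, went from a median of 493 CPM (138 to 764) to 1320 CPM (595 to 3487), a difference of 1.51 ± 0.13. Serpinf2 went from a median of 279 CPM (107 to 469) to 858 CPM (396 to 1648), a difference of 1.48 ± 0.11. The ranges of C4b and Serpinf2 overlapped, and those of F12, which starts the contact pathway, and Masp1 did not.

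F2 had the largest deficit in nuclear RNA. It ran from 1146 to 1721 CPM (median 1501) in total RNA and from 149 to 918 CPM (median 450) in nuclear RNA, without overlap, a log2 difference of -1.78 ± 0.11 (adjusted p = 7.26e-25). F5 went from a median of 964 CPM (741 to 1191) to 457 CPM (244 to 809), a difference of -1.14 ± 0.07. C8a, the alpha chain of C8, went from a median of 485 CPM (218 to 675) to 237 CPM (104 to 365), a difference of -1.03 ± 0.10. Its partner genes differed from it: C8b was not called in nuclear RNA (0.07 ± 0.13), although it lies 11130 bases from C8a, and C8g was higher by 0.98 ± 0.10. The fibrinogen genes were all lower, with differences of -0.91 for Fgg, -0.70 for Fgb and -0.40 for Fga. With replicates 1 to 3 alone Fga was not called (-0.06, adjusted p = 0.595).

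In polysomal RNA 28 of the 38 genes differed from total RNA, 7 higher and 21 lower, beside 76.1% of all 11556 genes (38.4% higher, 37.6% lower). A difference of at least 0.5 on the log2 scale was called for 21 of them, beside 56.0% of all genes. Their median log2 difference was -0.32, beside 0.01 for all genes. None of the 14 clotting and contact factors was called higher and 11 were called lower, whereas 4 inhibitors and fibrinolysis genes were higher and 2 lower, and 3 complement genes higher and 8 lower. The split depended on which replicates of both series were used. It was 14 higher and 17 lower with replicates 1 to 3 alone, and 3 higher and 26 lower with replicates 4 to 6 alone. Over all genes, the same fits called 3707 higher and 3900 lower, and 4070 higher and 4271 lower.

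C8g, the gamma chain of C8, had the largest polysomal excess. It ran from 265 to 764 CPM (median 358) in total RNA and from 637 to 1254 CPM (median 947) in polysomal RNA, a log2 difference of 1.28 ± 0.07 (adjusted p = 3.50e-26), and it was 1.31 with replicates 1 to 3 and 1.23 with replicates 4 to 6. The ranges overlapped through 1 total RNA library at 764 CPM, the next highest being 471 CPM. Proz went from a median of 70.6 CPM (36.7 to 108) to 127 CPM (89.2 to 173), a difference of 0.76 ± 0.06. Serpinf2 went from a median of 279 CPM to 395 CPM (215 to 1054), a difference of 0.55 ± 0.11 that was 1.01 in replicates 1 to 3 and 0.04 in replicates 4 to 6, where it was not called. Without polysomal replicate 1, which gave its highest values (the 4 highest were 797 to 1054 CPM), the difference was 0.24 ± 0.08.

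Proc, protein C, was lowest in polysomal against total RNA. It ran from 141 to 356 CPM (median 271) in total RNA and from 28.7 to 196 CPM (median 51.2) in polysomal RNA, a log2 difference of -2.18 ± 0.15 (adjusted p = 8.99e-22). Its 5 highest polysomal values, 116 to 196 CPM, were all of replicate 1, and without that replicate the difference was -2.65 ± 0.08. F11 went from a median of 18.9 CPM (8.75 to 37.1) to 6.29 CPM (1.35 to 15.6), a difference of -1.73 ± 0.14 that was -0.96 in replicates 1 to 3 and -2.60 in replicates 4 to 6. F2 went from a median of 1501 CPM to 453 CPM (194 to 934), without overlap, a difference of -1.69 ± 0.10. C3 was also lower, with a difference of -1.45 ± 0.18 that was -0.66 in replicates 1 to 3 and -2.49 in replicates 4 to 6.

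In polysomal RNA 5 of the 38 genes were called in opposite directions when the replicates were split. C2, C8b, F7, Plg and Serpind1 were higher with replicates 1 to 3 and lower with replicates 4 to 6. C8b had log2 differences of 1.08 ± 0.16 and -0.68 ± 0.16, and Plg of 0.30 ± 0.13 and -0.75 ± 0.09. Mean C8b in these sets was 294 and 438 CPM in total RNA, and 634 and 321 CPM in polysomal RNA. For Plg the means were 1210 and 1601 CPM in total, and 1524 and 1109 CPM in polysomal RNA. F7 was lower with replicates 4 to 6 in both (70.8 and 65.8 CPM, 88 and 63.9 CPM). The mean r of same-numbered polysomal and total libraries was -0.145, and each split changed both sides of the comparison. None of the 38 genes was called in opposite directions in nuclear RNA. How many of all genes were called in opposite directions was not counted in either fraction. Fga, F10 and Fgg, called lower over all replicates, had differences of 0.18, 0.15 and 0.09 with replicates 1 to 3, none of them called.

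Side by side, 10 genes were lower in both fractions than in total RNA, among them F2, F5, F9, F11, the fibrinogen genes and Pros1, the cofactor of protein C. Another 5 were higher in both: Serpinc1, Serpinf2, Proz, C8g and Mbl1. Serpinc1 was no longer called in polysomal RNA without replicate 1 (0.09, adjusted p = 0.0963), and with replicates 4 to 6 alone Serpinc1, Serpinf2 and Mbl1 were not called there (0.01, 0.04 and 0.02). There were 10 genes that were higher in nuclear and lower in polysomal RNA, among them C3, C4b, Cfb, Proc and Kng1. The nuclear call of Proc (0.23) was lost with replicates 4 to 6 alone (0.06, adjusted p = 0.61) and with the lower count filter (0.12). A single gene, Cpb2, which encodes the carboxypeptidase that protects fibrin from plasmin, was lower in nuclear (-0.34 ± 0.07) and higher in polysomal RNA (0.40 ± 0.06). How many of all genes fell into each of these classes was not counted. Of all genes tested, 83.8% differed from total RNA in nuclear and 76.1% in polysomal RNA. The class counts are therefore not read as a trait of these genes.

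Several of these genes have more than 1 polyadenylation site, and the share of a gene's counts at each site differed between fractions. Site positions were matched to genes by RefSeq coordinates and strand. In nuclear against total RNA, 45 of 52 member sites in 21 genes were called, beside 78.7% of all 11858 sites, and 18 of them in 10 genes differed by at least 10 percentage points, beside 41.3% of all sites. In polysomal RNA 30 of 47 sites in 19 genes were called, beside 70.5% of 12547, and 14 in 8 genes by at least 10 points, beside 34.4%. For Bmal1-/- against wild type, 9 of 52 member sites passed, beside 9.04% of 13403, and none reached 10 points, beside 1.19% of all sites that did.

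C6, the first protein to join C5b in the membrane attack complex, showed the widest shift in nuclear RNA. Its site at chr15:4759799-4759863 (mm10), 44182 bases before the annotated gene end, took 32.3 to 49% of the gene's counts (median 43.4%, 36 libraries) in total RNA and 3.71 to 23.3% (median 10.8%) in nuclear RNA, without overlap. The site at the annotated end, chr15:4803865-4804050, rose from 33% ± 8.78 (SD, n = 36) to 65.7% ± 9.41. In polysomal RNA the early site held 54.2% ± 9.44. The mean number of site counts behind these shares was 1402 in total, 817 in nuclear and 580 in polysomal libraries.

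Klkb1 and C8a shifted the other way, toward a site before the annotated end. In nuclear RNA the Klkb1 site 2764 bases before the end (chr8:45269452-45269704) rose from 31% ± 2.86 to 48.6% ± 9, and the site at the end fell from 58.4% ± 2.84 to 45.8% ± 7.8. The C8a site 1676 bases before the end (chr4:104817355-104817485) rose from 3.58% ± 0.899 to 17.3% ± 3.69, from 1.69 to 6.97% in total and from 10.9 to 26.2% in nuclear libraries. The other genes past 10 points in nuclear RNA were C9, Kng1, Kng2, Masp2, F13b, F5 and Proz. Among them the end-proximal C9 site at chr15:6498554-6498798 fell from 54.1% to 38.6% while the site next to it, chr15:6498431-6498484, rose from 26.8% to 49.9%.

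F10, the protease that forms thrombin from prothrombin, showed the widest shift in polysomal RNA. Its site at chr8:13039492-13039580, 2184 bases after the annotated gene start and 17096 bases before the end, rose from 18.1% ± 4.18 (10.3 to 24.8%) in total RNA to 50.3% ± 13.7 (21.7 to 70.8%) in polysomal RNA. The ranges overlapped only between 21.7 and 24.8%. The site nearer the end, chr8:13055681-13055916, fell from 68.6% ± 4.49 to 38.9% ± 14.7. In nuclear RNA the early site held 14.3% ± 5.22. F7, F10 and Proz follow each other on chromosome 8 with gaps of 1498 and 3907 bases. Masp2, which is known also to give a short protein from a shorter transcript, had its site 11070 bases before the end at 48% ± 4.56 in total, 61.9% ± 7.37 in nuclear and 64.7% ± 10.4 in polysomal RNA. The Proz site 148 bases before the end held 16.4% ± 5.61 in total RNA and 2.43% ± 1.51 and 1.72% ± 1.59 in the fractions.

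**Figure D4:**
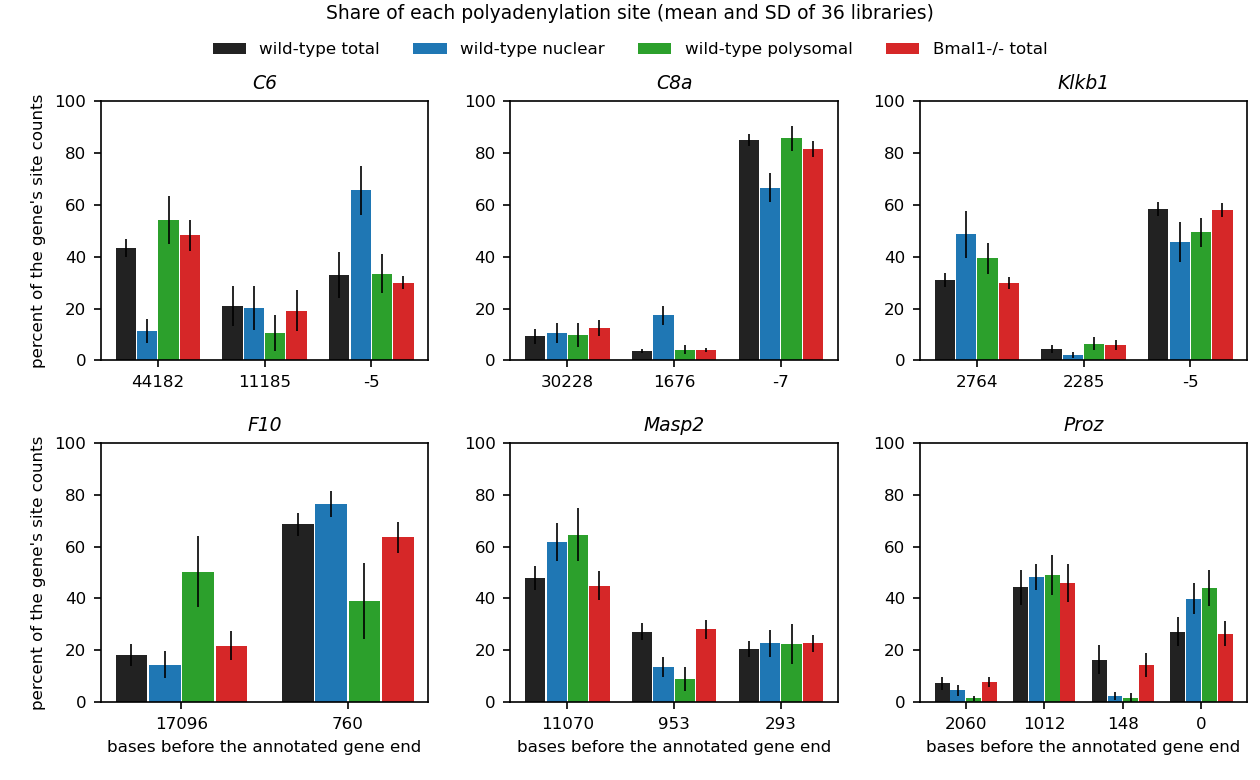
Share of a gene's site counts at each polyadenylation site of C6, C8a, Klkb1, F10, Masp2 and Proz, as mean and SD over 36 libraries in each series, by the site's distance before the annotated gene end in bases (negative past it). The early C6 site falls from 43.3% in total to 11.2% in nuclear RNA, and the early F10 site rises from 18.1% to 50.3% in polysomal RNA.

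Among the libraries of a group, C6 and C8b of the terminal complement pathway were among the 4 most variable of the 38 genes in every series. The within-group SD of log2(CPM + 1) was pooled over the times, as the square root of the mean variance. In wild-type total RNA it was 0.74 for C6 and 0.52 for C8b, the 2 highest of the 38 genes, with C9 at 0.43 and C8a at 0.40. In Bmal1-/- total RNA it was 1.16 for C6, 0.92 for C8a, 0.76 for C9 and 0.56 for C8b, the 4 highest. In nuclear RNA F11 (0.93) was above C6 (0.88), and in polysomal RNA Masp1 (1.02), C3 (0.90) and C8b (0.84) were above C6 (0.79). C8a ranked 11 in nuclear RNA and 10 in polysomal RNA, where C9 ranked 19. The 4 genes were often low in the same libraries. Of the 6 Bmal1-/- libraries lowest in C6, 3 were among the 6 lowest in C8a, 5 in C8b and 4 in C9, and in wild-type total RNA these counts were 5, 5 and 6. C8g, the other C8 chain, was low in 2 and 1 of them. C6 and C8b were chosen for this account after their values were seen.

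The lowest library was Bmal1-/- ZT18 replicate 5, with C6 at 6.31 CPM, C8a at 19.3 CPM, C8b at 128 CPM and C9 at 191 CPM, against Bmal1-/- medians of 232, 509, 433 and 1325 CPM. It was 1 of the 5 libraries that correlated least. Of the 6 libraries lowest in C6, 4 in each of these series were also among the 6 lowest in genes known to be higher in male than in female mouse liver. The 8 male-biased genes, a list added after the data were seen, summed to 433 CPM in that library and to a median of 4595 CPM (433 to 15081) in Bmal1-/- liver, while 10 female-biased genes summed to 497 CPM against a median of 11.3 CPM. In wild type the male-biased sum had a median of 6184 CPM (215 to 12026).

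Xist did not follow these genes in every library. The ZT22 libraries with Xist above 100 CPM in wild-type total (replicate 5), nuclear (replicate 5) and polysomal RNA (replicate 1) had male-biased sums of 215, 184 and 273 CPM, C6 at 20.4, 17.7 and 25.4 CPM and C9 at 254, 278 and 152 CPM. The Bmal1-/- library with Xist at 491 CPM had a male-biased sum of 3126 CPM, C6 at 116 CPM and C9 at 1135 CPM. In Bmal1-/- ZT18 replicate 5 Xist was at 0.107 CPM. The part of sex-biased expression in the values of C6, C8a, C8b and C9 was not tested. Without the Xist libraries the log2 change of C9 in Bmal1-/- liver was 1.09, and without those that correlated least it was 1.14.

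**Figure D5:**
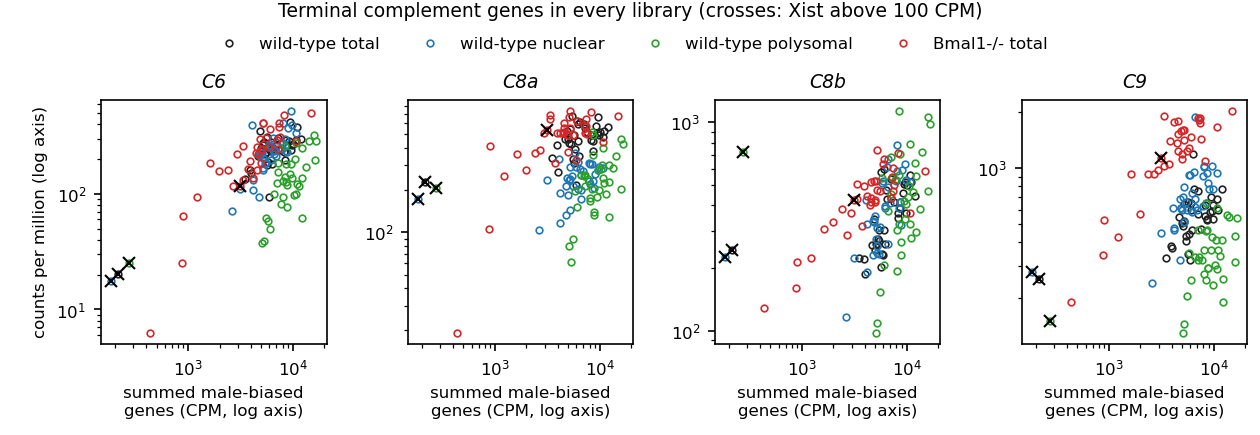
C6, C8a, C8b and C9 in each library of the 4 series against the summed level of 8 male-biased liver genes, both in CPM on log axes, coloured by series, with crosses for Xist above 100 CPM. In each series the library with the lowest male-biased sum (215, 184, 273 and 433) is also the lowest in C6 (20.4, 17.7, 25.4 and 6.31).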

How the data were processed

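Livers of wild-type and Bmal1-/- mice gave 144 libraries of 3′ mRNA sequencing (Lexogen QuantSeq, per the labels' protocols). The authors deposited raw counts per gene and per polyadenylation site and a filtered site list whose score column is 0 throughout; STAR 2.4.2a, edgeR, HOMER and the builds mm10 and GRCm38.p5 are named in the submitters' processing notes without their roles, and the strand rule of the counting is not given in the sources used here. The 38 genes and all lists were chosen with earlier results of these data known.

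Each contrast was fitted with edgeR 4.0.16 in R 4.3.3 on the deposited counts of all genes averaging 10 or more per library, with TMM scaling, robust quasi-likelihood tests and Benjamini-Hochberg adjustment over all genes tested. Total depth per library ran from 1662449 to 14281894 counts. Levels compare the mean of 6 time-point means over 72 libraries, and rhythms use a 24 h cosine and sine. Level values are CPM of the library total. Site shares used sites with at least 5% of a gene's site counts in genes averaging 50 or more of them, tested by edgeR with the gene's site total as offset. Of 29199 filtered sites, 26541 were given to 9057 genes by RefSeq coordinates (GRCm38.p6), and 128 lay in 37 of the 38 genes (none in Masp1). The coordinates gave no strand for 7 of these genes, which took the strand holding most of their site counts. Fits were tested on simulated data.

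Genes were named by rule: those called in Bmal1-/- liver with a log2 change of at least 0.5 in size, those called rhythmic in wild type, the 3 highest and 3 lowest in each fraction, those with a site past 10 percentage points, and for other lists the 3 largest changes each way in Bmal1-/- liver. Other names were chosen after their values were seen, and 1 gene that the rule names is not reported here. Alternatives were other scalings, DESeq2 1.42.0, a lower filter of 1 count, replicates 1 to 3 or 4 to 6 alone, a replicate block and left-out libraries.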

Additional observations from a re-analysis of the deposited data

Results flagged for a closer look

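In each group of 6 libraries, the summed level of the 38 genes and, in total RNA, that of 9 named genes were searched for a library whose gap to its nearest neighbour, as a share of the group's range, exceeded Dixon's critical value. Of 132 groups 12 (9.09%) held one, where chance gives about 1 in 20. The summed level was 21252 CPM in wild-type total ZT18 replicate 3 (others 24687 to 26133) and 40299 CPM in Bmal1-/- ZT10 replicate 3 (others 35860 to 37489). Fgb was at 10054 CPM in wild-type ZT2 replicate 4 (others 6715 to 7654), a library that correlated least with its series, and Fgg at 2798 CPM in wild-type ZT22 replicate 6 (others 1424 to 1786). Klkb1 was at 408 CPM in wild-type ZT6 replicate 6 (others 342 to 364) and at 371 CPM in Bmal1-/- ZT2 replicate 1 (others 280 to 310). F5 was at 894 CPM in wild-type ZT6 replicate 2 (others 1062 to 1140) and at 1761 CPM in Bmal1-/- ZT18 replicate 6 (others 1029 to 1238). C9 was at 348 CPM in wild-type ZT2 replicate 3 (others 530 to 636) and at 1199 CPM in wild-type ZT14 replicate 4 (others 330 to 650). C3 was at 3560 CPM in wild-type ZT18 replicate 5 (others 1784 to 2435), and C2 at 33.8 CPM in wild-type ZT2 replicate 3 (others 50.5 to 60.2).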

How the results depend on the processing

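Of 112 alternative counts of called genes or sites, 98 stayed within 1.5 times the value reported. In wild-type total RNA, 3 and 1 genes were rhythmic with replicates 1 to 3 and 4 to 6. In nuclear RNA, 1 was rhythmic by DESeq2 and 1 with the replicate block. In polysomal RNA, 11 were rhythmic with the replicate block, 0 and 8 with replicates 1 to 3 and 4 to 6, 1 with time as a factor, and 5 each without replicate 1 and without the libraries that correlated least. The difference in rhythm between genotypes called 1 gene without the latter. Member sites called in Bmal1-/- RNA numbered 16 with the block and 5 and 15 with replicates 1 to 3 and 4 to 6. For single genes and sites, 1092 alternative values kept their call, 52 lost it, and 4 changed sign: Masp2 in Bmal1-/- liver (0.00 with total-count scaling), and in polysomal RNA Fga (0.18), F10 (0.15) and Fgg (0.09) with replicates 1 to 3. The causes were not tested. On pairing by replicate number, same-numbered nuclear and total libraries deviated together in 35 of 36 pairs (r over 0.1, mean 0.395, lowest -0.04; 29 correlated best with their own number), a hint from the data that the labels do not settle. The mean r was -0.145 for polysomal and 0.082 for Bmal1-/- libraries. The replicate block gave 33 called genes in nuclear RNA against 32, 0 differing in nuclear rhythm as without it, and 27 in Bmal1-/- liver against 25. Depth limits Masp1 (down to 0 counts in polysomal libraries) and F11 (down to 4 counts in nuclear ones).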

Other observations

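Other clotting and complement genes were also compared between the fractions. Of all genes tested, 83.8% were called in nuclear and 76.1% in polysomal RNA, and 18.9% were rhythmic in wild-type total RNA. In nuclear RNA 7 of 17 tested clotting-related genes were higher and 5 lower, with a median log2 difference of 0.18, and 5 of 25 complement-related genes were higher and 11 lower, with a median of -0.08. In polysomal RNA 6 clotting-related genes were higher and 3 lower (median -0.01), and 6 complement-related genes were higher and 9 lower (median -0.04). Among 21 acute-phase genes 3 were higher and 7 lower in polysomal RNA (median -0.00). By time of day, 4 of 18 clotting-related and 1 of 25 complement-related genes were rhythmic in wild-type total RNA, and 3 of 21 acute-phase genes.

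Markers of several liver cell types were also compared in polysomal RNA, where 76.1% of all genes tested were called (38.4% higher, 37.6% lower). Their counts are not read as a result about these cell types. Of 10 stellate cell markers, 8 of the 9 tested were lower (median -0.76), and of 10 sinusoidal endothelial markers 8 were lower (median -0.37). Of 10 Kupffer cell markers 3 were higher and 6 lower (median -0.47), and of 10 hepatocyte markers 1 was higher and 4 lower (median -0.25). The 2 platelet markers tested were not called (0.26 and 0.28).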
